A study of Mus musculus with 8 samples.

Results

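The genes described here are 10 members of the pathway through which cells sense insulin, insulin-like growth factors (IGF) and nutrients: Igf1r, Insr, Irs1, Irs2, Tsc1, Tsc2, Mtor, Rptor, Ddit4 and Atf4. Their DNA methylation was read by reduced representation bisulfite sequencing (RRBS) in nephron progenitors, the self-renewing cells of the embryonic kidney from which nephrons form. Members were the CpGs lying in each gene or within 5 kb of its ends that had at least 10 reads in every library. This gave 430 CpGs of the 441994 that met the same depth on the autosomes, and 29 tiles of 1 kb with at least 3 such CpGs. The 10 genes stand among 33073 in the gene table used.

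There were 4 libraries from embryos of calorie-restricted dams and 4 from embryos of unrestricted dams. Restricted dams received 70% of the average daily intake once a day during pregnancy, and unrestricted dams ate freely. All dams were wild-type CD1 females, an outbred strain, aged 8 to 10 weeks. In both groups the embryos were heterozygous for the Tg(Six2-EGFP/cre) transgene, in which the Six2 promoter drives a GFP-Cre fusion, and the progenitors were sorted at E17.5 by that GFP, with both sexes together. How many embryos or litters stood behind each library was not given, so p-values refer to these libraries rather than to embryos or litters. The spread they use was moderated over all units of a kind. In tests on read counts it was also not set below that of counting alone.

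Insulin and IGFs bind receptor kinases that phosphorylate the adaptor proteins IRS1 and IRS2, and the signal runs on through PI3 kinase and AKT. AKT restrains the TSC1-TSC2 complex, which otherwise keeps mTOR complex 1, a kinase complex that promotes growth when nutrients are plentiful, switched off. DDIT4 and ATF4 link this pathway to stress and amino acid shortage. In mice, partial loss of Tsc1 in nephron progenitors is known to raise nephron number. CpG-dense starts of active genes are usually free of methylation, whereas CpGs far inside genes are usually methylated.

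Where CpGs of a start window were measured, in Igf1r, Irs1, Irs2, Mtor, Rptor, Ddit4 and Atf4, and at the higher-coordinate end of Insr, mean levels were below 2% in both groups. No CpG of the start windows of Tsc1 and Tsc2 was measured. Methylated CpGs lay mostly more than 2 kb inside the genes. Of the 430 CpGs, 379 had a mean level below 5%, 25 lay between 5 and 80%, and 26 exceeded 80%. No methylated read was seen at 314 CpGs in any library. A level is the percent of reads called methylated at a CpG. Read counts over several CpGs are summed over them, so a read that covers several CpGs counts once for each. None of the differences between restricted and unrestricted libraries in these genes passed an adjusted p of 0.05.

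Promoter windows are shown for the 4 genes whose start itself was measured, and for Tsc1 as a start with no measured CpG. Each holds 250 bases before and 50 after the start in the promoter table, is written 5′ to 3′ on the strand of the gene, and comes from RefSeq on GRCm38.p6, the coordinate system of mm10. Capitals mark CpGs that every library covered with 10 reads or more. The windows are chr7:67952007-67952306 (plus strand) for Igf1r, chr4:148448332-148448631 (plus) for Mtor, chr10:59951721-59952020 (minus) for Ddit4, chr15:80254934-80255233 (plus) for Atf4 and chr2:28640983-28641282 (plus) for Tsc1. The start of Tsc1 in that table lies inside the bounds of the gene table, from which distances are counted here, so that only 10 bases of its window precede the gene there.
Igf1r: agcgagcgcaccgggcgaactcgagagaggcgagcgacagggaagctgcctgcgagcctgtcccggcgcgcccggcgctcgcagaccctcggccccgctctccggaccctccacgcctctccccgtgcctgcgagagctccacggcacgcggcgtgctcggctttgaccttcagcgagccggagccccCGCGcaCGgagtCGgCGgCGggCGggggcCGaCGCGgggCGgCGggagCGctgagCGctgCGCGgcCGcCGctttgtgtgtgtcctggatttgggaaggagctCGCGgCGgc
Mtor: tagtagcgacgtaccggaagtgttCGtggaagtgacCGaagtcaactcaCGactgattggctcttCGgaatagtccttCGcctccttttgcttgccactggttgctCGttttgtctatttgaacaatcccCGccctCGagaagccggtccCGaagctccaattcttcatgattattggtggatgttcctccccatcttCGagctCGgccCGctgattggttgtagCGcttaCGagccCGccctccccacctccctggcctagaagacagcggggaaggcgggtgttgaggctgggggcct
Ddit4: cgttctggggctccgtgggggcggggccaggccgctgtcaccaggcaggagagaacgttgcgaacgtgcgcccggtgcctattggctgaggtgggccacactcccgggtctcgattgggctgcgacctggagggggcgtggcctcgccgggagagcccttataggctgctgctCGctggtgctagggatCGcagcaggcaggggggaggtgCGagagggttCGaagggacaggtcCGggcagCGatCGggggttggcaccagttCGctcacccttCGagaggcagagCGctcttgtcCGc
Atf4: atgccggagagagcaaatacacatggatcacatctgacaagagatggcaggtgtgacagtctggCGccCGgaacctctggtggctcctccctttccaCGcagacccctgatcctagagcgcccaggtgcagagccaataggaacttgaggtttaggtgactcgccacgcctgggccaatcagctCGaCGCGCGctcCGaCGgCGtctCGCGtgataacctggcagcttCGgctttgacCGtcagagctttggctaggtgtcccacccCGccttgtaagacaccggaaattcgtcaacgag
Tsc1: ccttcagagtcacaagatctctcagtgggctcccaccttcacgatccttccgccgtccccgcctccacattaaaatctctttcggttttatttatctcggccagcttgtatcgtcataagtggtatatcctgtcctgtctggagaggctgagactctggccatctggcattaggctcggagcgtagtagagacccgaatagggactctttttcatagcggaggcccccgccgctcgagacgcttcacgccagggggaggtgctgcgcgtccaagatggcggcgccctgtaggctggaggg

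Of the 10 genes, 9 matched the promoter table by symbol, and Insr did not. The Igf1r window held 48 CpGs, more than 98.8% of the 25748 autosomal promoters in the table, of which the median held 7. Measured were 21 of the 48 in Igf1r, 15 of 21 in Mtor, 11 of 26 in Ddit4 and 15 of 22 in Atf4. The windows of Irs1, Irs2, Tsc1, Tsc2 and Rptor held no measured CpG, so nothing is known here of methylation at those starts themselves. RRBS libraries are usually cut with MspI at the letters CCGG, which read the same on both strands. CCGG was found in 7 of the 9 windows, all but those of Tsc1 and Rptor, and in 53.4% of all promoters.

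Across the measured CpGs of these windows the mean level was 0% in restricted and 0.164% in unrestricted libraries at Igf1r, and 0.178 and 0.0508% at Mtor. At Ddit4 it was 0 and 0.283%, and at Atf4 no methylated read was seen in either group. No single CpG in the windows averaged above 0.962%. For scale, 0.0221 to 0.0854% of a library's reads over mitochondrial CpGs, usually free of methylation, carried a methylated call. Levels of a few hundredths of a percent are therefore of the size of this background.

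Reads over CpGs numbered 16045992 to 37305007 per library, and the median shared CpG had 20 to 44 reads. In restricted libraries 1 and 2 the level pooled over reads minus the mean of the CpG levels was -2.24 and -3.28 percentage points, whereas the other 6 libraries had -0.575 to 0.817. The levels of gene bodies given here are therefore means over a fixed set of CpGs. As a check of the sorted cell type, the starts or ends of 3 of 8 nephron progenitor markers could be measured, Six2, Sall1 and Pax2, at 0.0450 to 0.0664%. Those of the stromal markers Foxd1 and Meis1 (2 of 4 listed) lay at 0.0319 to 0.0524% and that of the ureteric bud marker Wnt11 (1 of 4) at 0.106%, while 0 of 4 each could be measured for podocytes, endothelium and blood. Low methylation at these ends did not tell the cell types apart.

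**Figure D1:**
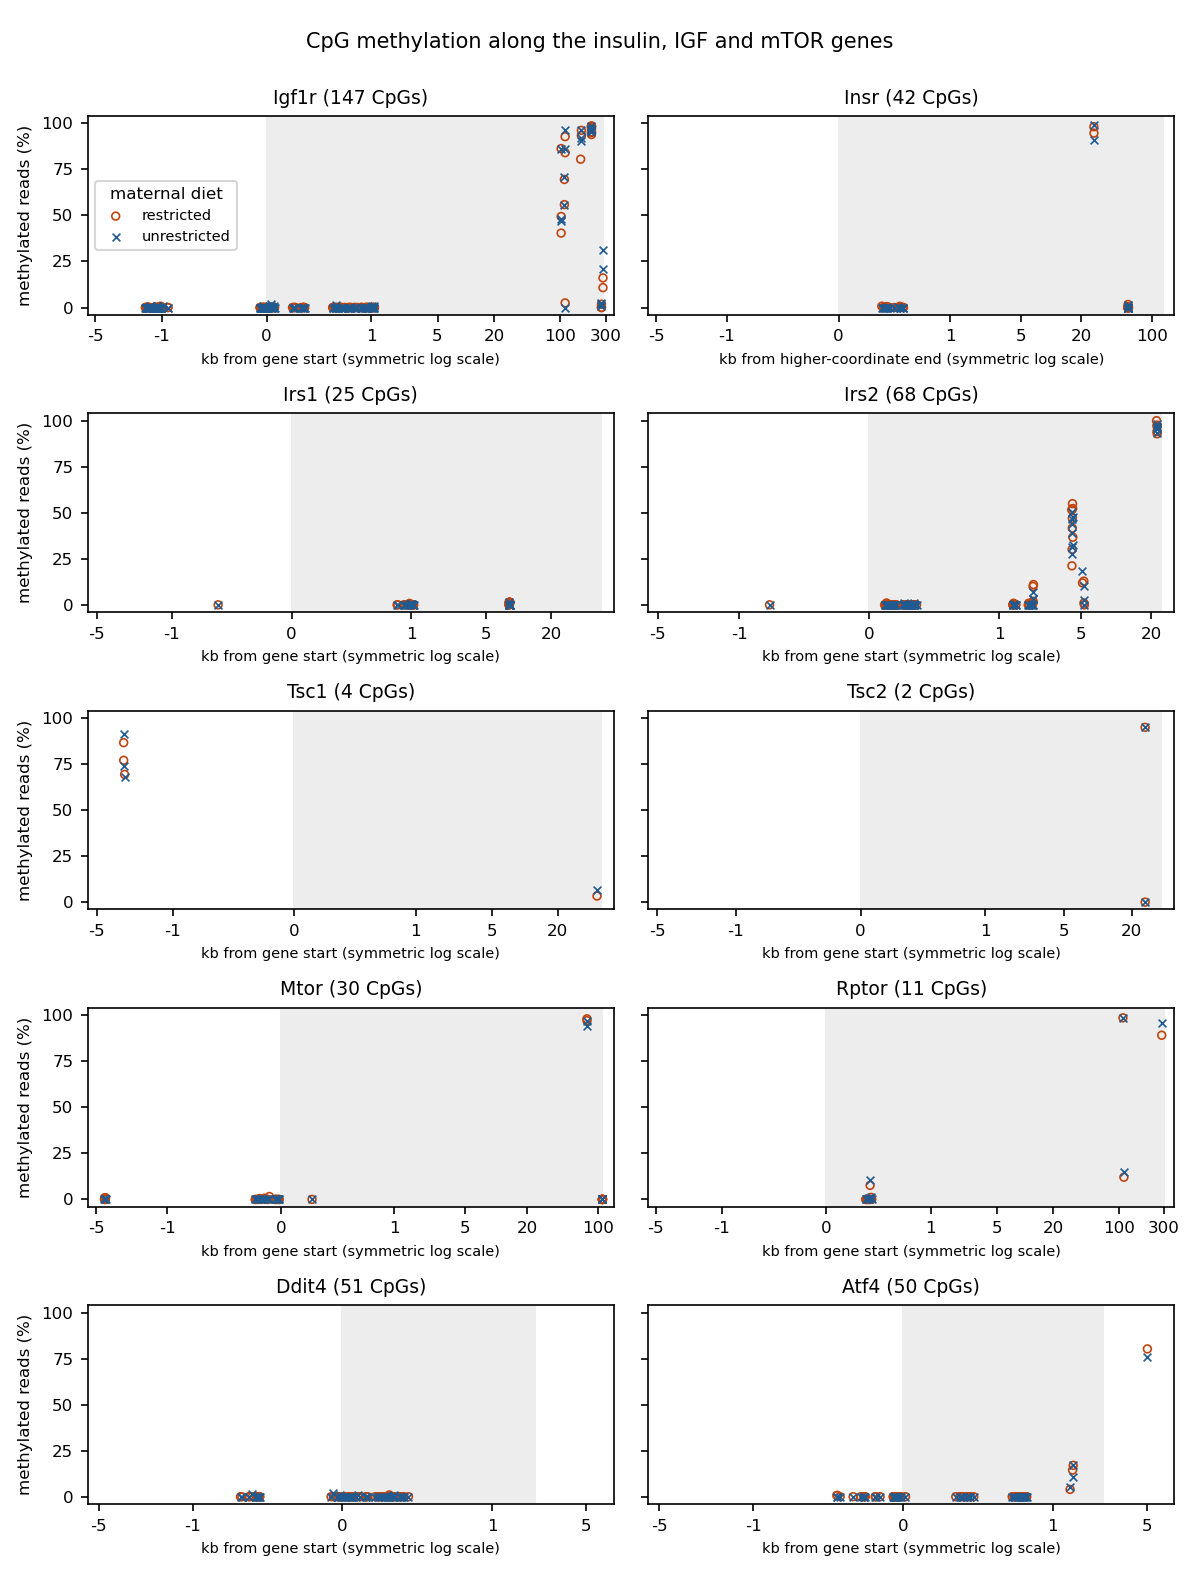
Methylation level (percent of reads) of every member CpG against its distance from the gene start in kb on a symmetric log scale (for Insr, from its higher-coordinate end), with the gene in grey. Each point is the mean of 4 libraries, circles for restricted and crosses for unrestricted; CpGs around the starts lie near 0 and those above 80% lie deep inside genes, before Tsc1 or past the end of Atf4.

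Arranged by distance from the gene start over the 9 genes with a known strand, levels stayed low up to 2 kb inside the gene. The 109 CpGs of the first 500 bp averaged 0.0981% ± 0.050 in restricted and 0.181% ± 0.0463 in unrestricted libraries (SD, n = 4 each). Between 500 bp and 2 kb, 87 CpGs averaged 0.719% ± 0.186 in restricted and 0.609% ± 0.192 in unrestricted libraries. Beyond 5 kb, 59 CpGs of 8 genes averaged 43.2% ± 0.352 and 43.9% ± 0.619. That last class includes 7 CpGs past the end of Mtor, 2 past that of Igf1r and 1 past that of Atf4. Over all genes, classes by the same distances stopped at the gene end, so the comparison beyond 5 kb is not of like with like. They averaged 1.01% in the first 500 bp, 2.97% from 500 bp to 2 kb and 34.7% beyond 5 kb. In none of the 3 classes were restricted and unrestricted libraries separate: restricted libraries spanned 0.0270 to 0.137%, 0.509 to 0.907% and 43.0 to 43.7%, and unrestricted libraries 0.117 to 0.226%, 0.372 to 0.795% and 43.5 to 44.9%.

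Igf1r, which encodes the receptor kinase for IGF1 and IGF2, contributed 147 CpGs, the most of any member. It lies on chromosome 7 from 67952257 to 68233668 on the plus strand and is 281412 bp long. A CpG-dense stretch of 79 CpGs runs from 67952195, just before its start, to 1074 bp inside it. In that stretch restricted libraries 1 to 4 had no methylated read at all among 9830 reads summed over its CpGs. Taken as independent calls, these allow up to 0.0305% (3 reads of the total). Each CpG had 10 to 93 reads a library over both groups. CpGs on the same reads are not independent, so the true limit is wider. Unrestricted libraries 1 to 4 had 6, 1, 3 and 4 methylated reads, or 14 of 12601, for mean levels of 0.225, 0.0198, 0.0913 and 0.0774%. A single CpG held 3, 1, 2 and 2 of these methylated reads in unrestricted libraries 1 to 4. Every unrestricted library thus had methylated reads and no restricted one did, so the groups did not overlap. Of all stretches of member CpGs it was the only one without overlap, and it was singled out after its values were seen. How often such stretches lack overlap over all genes was not computed. The share of mitochondrial reads called methylated in unrestricted libraries 1 to 4 was 0.0479, 0.0695, 0.0221 and 0.0251%, below the level of the stretch in libraries 1, 3 and 4 and above it in library 2. In restricted libraries 1 to 4, which had no methylated read in the stretch, that share was 0.0663, 0.0854, 0.0253 and 0.0242%. The mitochondrial share pools reads, whereas levels of the stretch are means of CpG levels. Counted in the same way, a single restricted library at 0 still allows 0.0876 to 0.170%.

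No test covered the whole stretch, and tests on units that hold parts of it did not call a difference. The gene-start window, which reaches 1000 bp out of the gene and 500 bp into it and holds 41 CpGs, had 0% in all 4 restricted libraries, against 0.375, 0, 0.0870 and 0% in unrestricted libraries 1 to 4. The quasi-binomial test gave p = 0.0287 and a Benjamini-Hochberg adjusted p of 0.685. The tile from 67953001 to 67954000, with 29 CpGs, had 0% in every restricted library, against 0, 0.0599, 0.181 and 0.248% in the unrestricted ones (quasi-binomial p = 0.0108, adjusted p = 0.739). It gave the smallest p of all member tiles. The tile before it, from 67952001 to 67953000, holds the other 50 CpGs of the stretch. That tile read 0% in every restricted library, against 0.350, 0, 0.0766 and 0% in the unrestricted ones (quasi-binomial p = 0.0415, adjusted p = 0.773). A further 45 CpGs before the start, from 67950777 to 67951319, had 1 methylated read of 3933 in restricted and 3 of 5841 in unrestricted libraries.

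Inside Igf1r the level climbed with distance and then dropped again. Around 102 kb from the start, 3 CpGs averaged 58.6, 54.0, 60.8 and 61.5% in restricted libraries 1 to 4 and 57.3, 58.9, 68.4 and 56.9% in unrestricted libraries 1 to 4. Around 213 kb, 7 CpGs averaged 96.7% ± 1.14 in restricted and 96.7% ± 1.86 in unrestricted libraries. Around 271 kb, 3 CpGs from 68223565 to 68223610 were back at 0.595% ± 1.19 and 1.74% ± 1.81. This low patch near the far end of the gene was present in each library of both groups, none of which exceeded 4.07%.

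Neighbouring Igf1r CpGs could also differ sharply from each other. Around 112 kb, the CpG at 68064132 stood at 92.8% ± 6.47 in restricted and 96.4% ± 2.61 in unrestricted libraries. The CpG at 68064221, a short way further on, stood at 2.50% ± 5.0 in restricted libraries, with restricted library 2 at 10% and the other 3 at 0, and at 0% in all unrestricted libraries. Over the whole body, 62 CpGs averaged 22.9, 22.9, 23.1 and 23.2% in restricted libraries 1 to 4, against 23.2, 23.4, 23.5 and 23.8% in unrestricted libraries 1 to 4. The groups overlapped at their edges, and the difference of -0.41 percentage points (95% interval -1.44 to 0.611) had an adjusted p of 0.948 by limma. With reads pooled over CpGs it turned to 0.791 points.

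At the 3′ end of Igf1r, 2 CpGs showed wide scatter. Their pooled level was 11.5, 19.2, 13.9 and 9.09% in restricted libraries 1 to 4 and 24.1, 22.2, 44.1 and 13.6% in unrestricted libraries 1 to 4. Each CpG had 11 to 27 reads a library, which summed over the 2 CpGs gave 22 to 54. Restricted library 2 lay above unrestricted library 4, so the groups overlapped. The CpG at 68233873 averaged 16.1% ± 12.6 in restricted and 31.0% ± 18.5 in unrestricted libraries. It had the smallest p of all member CpGs (quasi-binomial p = 0.0458, Benjamini-Hochberg adjusted p = 0.622). With only 2 CpGs the window itself was not tested. A single CpG at 68115697, 163 kb inside the gene, read 88, 75, 75 and 84.2% in restricted libraries and 93.8, 91.2, 87.0 and 90% in unrestricted ones (quasi-binomial p = 0.0718, adjusted p = 0.622).

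Insr encodes the insulin receptor, the close relative of IGF1R. It lies on chromosome 8 from 3150922 to 3279649, and the tables used gave no strand, so its ends are named by coordinate. Near the higher-coordinate end, 15 CpGs from 3279069 to 3279263 had 4 methylated reads of 2302 in restricted and 2 of 2646 in unrestricted libraries. A second dense stretch of 25 CpGs, from 3221048 to 3221510 in the interior of the gene, was just as empty, with 1 methylated read of 2039 in restricted and 2 of 2648 in unrestricted libraries. Between them, 2 CpGs at 3252976 and 3253042 stood at 96.4% ± 2.56 in restricted and 95.1% ± 2.93 in unrestricted libraries.

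With 25 of its 33 body CpGs in the empty stretch, Insr had a low body level. It was 5.71, 5.76, 6.13 and 6.06% in restricted libraries 1 to 4, against 5.70, 5.76, 6.03 and 5.98% in unrestricted libraries 1 to 4. The ranges coincided almost fully, and the difference was 0.0486 points (95% interval -0.336 to 0.433, limma adjusted p = 0.978). It turned to -1.62 points with pooled reads and to -0.388 at a minimum of 5 reads. The end window of 9 CpGs averaged 0.193% ± 0.139 in restricted and 0.0497% ± 0.0994 in unrestricted libraries (quasi-binomial adjusted p = 0.685).

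Irs1 and Irs2 encode the adaptors that carry the receptor signal to PI3 kinase, and the levels of their measured CpGs differed. Irs1, on chromosome 1 from 82233105 to 82291439 on the minus strand, had no methylated stretch among its 25 CpGs. These reached no further than 8248 bp into a gene of 58335 bp. At a minimum of 5 reads, 31 body CpGs averaged 11.9 points ± 1.20 above 37 end CpGs in restricted libraries. In unrestricted libraries the contrast was 11.9 ± 0.370 points. Methylated body CpGs of Irs1 thus came in at the lower depth. Around 1 kb inside the gene, 13 CpGs had 1 methylated read of 1824 in restricted and 3 of 2008 in unrestricted libraries. Around 8 kb inside, 11 CpGs from 82283191 to 82283358 stood at 0, 3.83, 0 and 0% in restricted libraries 1 to 4, and at 0.227, 0.239, 0 and 0% in unrestricted libraries 1 to 4.

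The higher mean of that Irs1 stretch in the restricted group came from restricted library 2 alone. In that library 8 of the 11 CpGs had a methylated read, and none had more than 1. The 209 reads of that library over the stretch are summed over its CpGs. No CpG of the stretch had fewer than 19 or more than 40 reads in any library. CpGs on the same reads are not independent, and the files do not say whether those 8 calls came from a single molecule. The body of Irs1 averaged 0.471% ± 0.858 in restricted and 0.122% ± 0.124 in unrestricted libraries (difference 0.349 points, 95% interval -0.557 to 1.26, limma adjusted p = 0.948). Without restricted library 2 the difference was -0.0785 points. The CpG at 82292052, before the gene, had 0 methylated reads of 226 in restricted and of 234 in unrestricted libraries.

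Irs2, on chromosome 8 from 10984681 to 11008929 on the minus strand, carried stretches of very different level along its 68 CpGs. From 118 to 364 bp inside the gene, 34 CpGs had 1 methylated read of 3972 in restricted and 2 of 5641 in unrestricted libraries. The lncRNA gene 9530052E02Rik lies within 1 kb of these CpGs. Between 1312 and 1969 bp, 16 CpGs averaged 1.65% ± 0.848 in restricted and 0.864% ± 0.499 in unrestricted libraries. Around 22 kb, 5 CpGs stood at 96.3% ± 2.18 and 96.1% ± 2.27.

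Around 4 kb inside Irs2 lay the largest stretch in these genes in which every CpG was between 5 and 80%. Its 8 CpGs, from 11004654 to 11004745, had single levels of 26.3 to 50.02%. The stretch averaged 37.0, 47.7, 41.2 and 41.8% in restricted libraries 1 to 4 and 38.4, 47.7, 35.3 and 38.5% in unrestricted libraries 1 to 4. Each CpG had 11 to 45 reads a library, which summed over the CpGs gave 88 to 357. Library 2 was highest in each group, and the groups overlapped over most of their range. The CpG at 11004731 read 14.3, 27.3, 20 and 23.1% in restricted libraries and 34.3, 33.3, 35.3 and 22.6% in unrestricted libraries (quasi-binomial p = 0.0599, adjusted p = 0.622). A kilobase further on, 4 CpGs from 11003558 to 11003758 averaged 6.44% ± 2.12 and 7.79% ± 3.14.

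The difference at Irs2 kept no common sign along the gene. The tile of smallest p, from 11006001 to 11007000 with 5 CpGs, read 4.83, 7.69, 1.74 and 5.45% in restricted libraries 1 to 4, against 1.33, 1.05, 4.44 and 3.81% in unrestricted libraries 1 to 4. Restricted library 3 lay among the unrestricted values (quasi-binomial p = 0.146, adjusted p = 0.773). The body of 33 CpGs averaged 26.3% ± 1.26 in restricted and 25.6% ± 0.965 in unrestricted libraries, a difference of 0.726 points (95% interval -1.22 to 2.68, limma adjusted p = 0.949). With pooled reads it turned to -3.21 points. The start window of 35 CpGs averaged 0.0326% ± 0.0652 and 0.0427% ± 0.0495 (quasi-binomial adjusted p = 0.963).

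**Figure D2:**
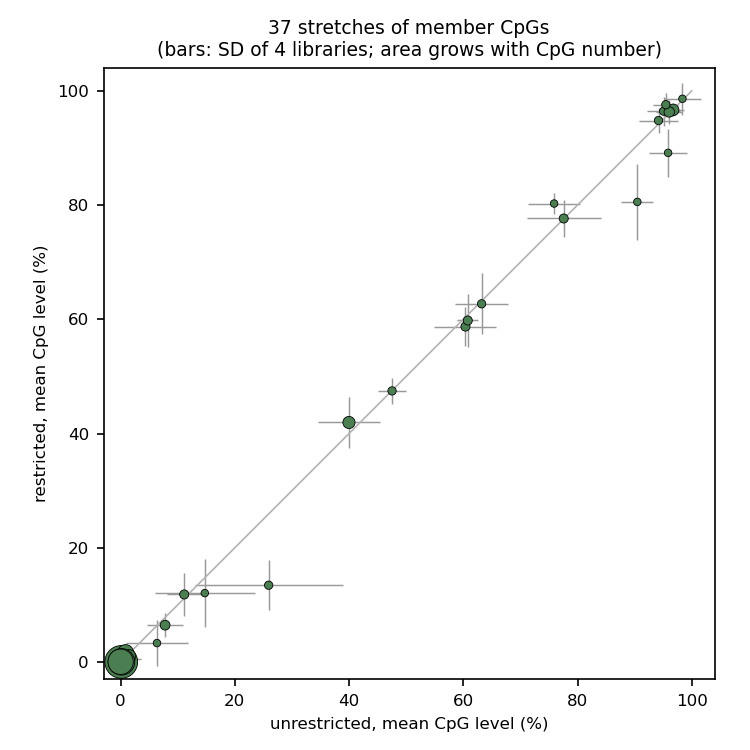
Mean CpG level of each of the 37 stretches of member CpGs (neighbours no more than 500 bp apart), restricted libraries on the y axis and unrestricted on the x axis, in percent. Bars are the SD of 4 libraries, areas grow with the number of CpGs, and the line marks equal levels; the stretches farthest from it are made of 1 or 2 CpGs.

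Tsc1 and Tsc2 encode the subunits of the complex that holds mTOR complex 1 in check by acting on the small GTPase RHEB. Both were thinly covered, and neither start was measured. Tsc1, on chromosome 2 from 28640993 to 28691172 on the plus strand, had 3 CpGs before its start, from 28638165 to 28638220, and 1 inside. The upstream CpGs read 76.2, 82.4, 77.0 and 75% in restricted libraries 1 to 4 and 81.9, 70.9, 84.3 and 73.3% in unrestricted libraries 1 to 4. Restricted libraries lay within the span of the unrestricted ones, and the tile that holds these CpGs had an adjusted p of 0.991 by the quasi-binomial test. The CpG inside the gene, at 28686853, averaged 3.30% ± 4.07 and 6.36% ± 5.46 on 12 to 44 reads.

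Tsc2, on chromosome 17 from 24595816 to 24632676 on the minus strand, had 2 CpGs, 26.4 kb inside the gene. The CpG at 24606263 had no methylated read in any library. Its neighbour at 24606273 read 95.5, 88.9, 100 and 95.2% in restricted libraries 1 to 4 and 97.6, 100, 88.9 and 93.8% in unrestricted libraries 1 to 4. The mean of 47.5% ± 2.28 in restricted and 47.5% ± 2.42 in unrestricted libraries thus joins an empty CpG and a nearly full one, and does not describe an intermediate state. The neighbour's difference was -0.138 points (quasi-binomial adjusted p = 0.895).

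Mtor encodes the kinase itself and Rptor the scaffold RAPTOR, which recruits its substrates. Mtor lies on chromosome 4 from 148448582 to 148557685 on the plus strand. Its start window held 16 CpGs and read 0, 0, 0.229 and 0.364% in restricted libraries 1 to 4, against 0.134, 0, 0.143 and 0% in unrestricted libraries 1 to 4. Each group had libraries at 0, and these values stand for 4 methylated reads of 3012 and 2 of 3413 (quasi-binomial adjusted p = 0.715). Around 77.6 kb inside, 2 CpGs at 148526132 and 148526137 were nearly full, at 97.6% ± 2.05 in restricted and 95.5% ± 2.17 in unrestricted libraries.

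Low levels at the far end of Mtor fall beside another gene. The 7 CpGs in its 3′ window, from 148558517 to 148558588, lie within 1 kb of an end of Exosc10 and had 0 methylated reads of 763 in restricted and of 1117 in unrestricted libraries. Taken as independent calls, these counts allow up to 0.393 and 0.269%.

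Rptor lies on chromosome 11 from 119602905 to 119899591 on the plus strand and is 296687 bp long, but gave only 11 CpGs. Its 8 CpGs between 377 and 435 bp inside the gene had the highest level of the measured start windows. They read 0.368, 1.36, 1.39 and 1.25% in restricted libraries 1 to 4 and 1.09, 1.35, 1.32 and 2.30% in unrestricted libraries 1 to 4. Restricted library 1 was lowest and unrestricted library 4 highest, with the rest between 1.09 and 1.39% (quasi-binomial p = 0.386, adjusted p = 0.742). A single CpG at 119603324 carried most of it, with 7.64% ± 3.69 in restricted and 10.4% ± 5.95 in unrestricted libraries.

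Deep inside Rptor, the CpG at 119712957 was nearly full at 98.6% ± 2.78 and 98.4% ± 3.26, whereas the CpG at 119715499 stood at 12.1% ± 5.94 and 14.7% ± 8.74. The CpG at 119887053, near the far end, read 94.4, 84.6, 87.5 and 90% in restricted libraries 1 to 4 and 95, 91.9, 96.6 and 100% in unrestricted libraries 1 to 4. Restricted library 1 lay above unrestricted library 2, so the groups overlapped (quasi-binomial p = 0.131, adjusted p = 0.622), and only 10 to 40 reads stood behind each value. The body, made of these 3 CpGs, averaged 66.6% ± 3.24 in restricted and 69.7% ± 2.83 in unrestricted libraries, a difference of -3.05 points (95% interval -7.71 to 1.61, limma adjusted p = 0.948).

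Ddit4 encodes REDD1, which is induced by stress and restrains mTOR complex 1 by way of the TSC complex. The gene is 2096 bp long, on chromosome 10 from 59949675 to 59951770 on the minus strand, and all of its 51 CpGs fell in the start window. They read 0, 0, 0.0733 and 0% in restricted libraries 1 to 4, against 0.0673, 0.0477, 0.152 and 0.177% in unrestricted libraries 1 to 4. All unrestricted libraries had methylated reads, as had restricted library 3, so the groups overlapped. The counts were 1 methylated read of 5630 in restricted and 7 of 6584 in unrestricted libraries, for a difference of -0.0929 points (quasi-binomial p = 0.0549, adjusted p = 0.685).

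Atf4 encodes a transcription factor whose translation rises under amino acid shortage and other stress. It is 2362 bp long, on chromosome 15 from 80255184 to 80257545 on the plus strand. From 80254742, before its start, to 827 bp inside, 46 CpGs were measured. Restricted libraries had 2 methylated reads of 4284 there, both in restricted library 1, and unrestricted libraries had 0 of 5337. Taken as independent calls, that count of 0 allows up to 0.0562%. Further in, 3 CpGs from 80256532 to 80256607 read 8.84, 10.4, 10.8 and 17.2% in restricted libraries 1 to 4 and 6.82, 11.1, 12.7 and 13.95% in unrestricted libraries 1 to 4. The groups overlapped there. A CpG at 80260241, past the gene and within 1 kb of an end of Rps19bp1, stood at 80.3% ± 1.84 and 75.9% ± 4.55.

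The CpG at 80256607 of Atf4 had the smallest p of that gene. It read 8.16, 12.5, 21.6 and 25.8% in restricted libraries 1 to 4 and 9.09, 10.53, 11.5 and 11.6% in unrestricted libraries 1 to 4 (p = 0.134, quasi-binomial adjusted p = 0.622). Restricted library 1 was below every unrestricted library and the other 3 were above. Its neighbour at 80256591 went the other way, with 14.4% ± 6.44 in restricted and 17.3% ± 5.15 in unrestricted libraries. The body of 17 CpGs averaged 2.09% ± 0.651 in restricted and 1.97% ± 0.548 in unrestricted libraries (limma adjusted p = 0.977), and this difference of 0.121 points turned to -0.275 with pooled reads and to -0.177 at a minimum of 5 reads. The start window averaged 0.0602% ± 0.120 and 0% (quasi-binomial adjusted p = 0.685).

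**Figure D3:**
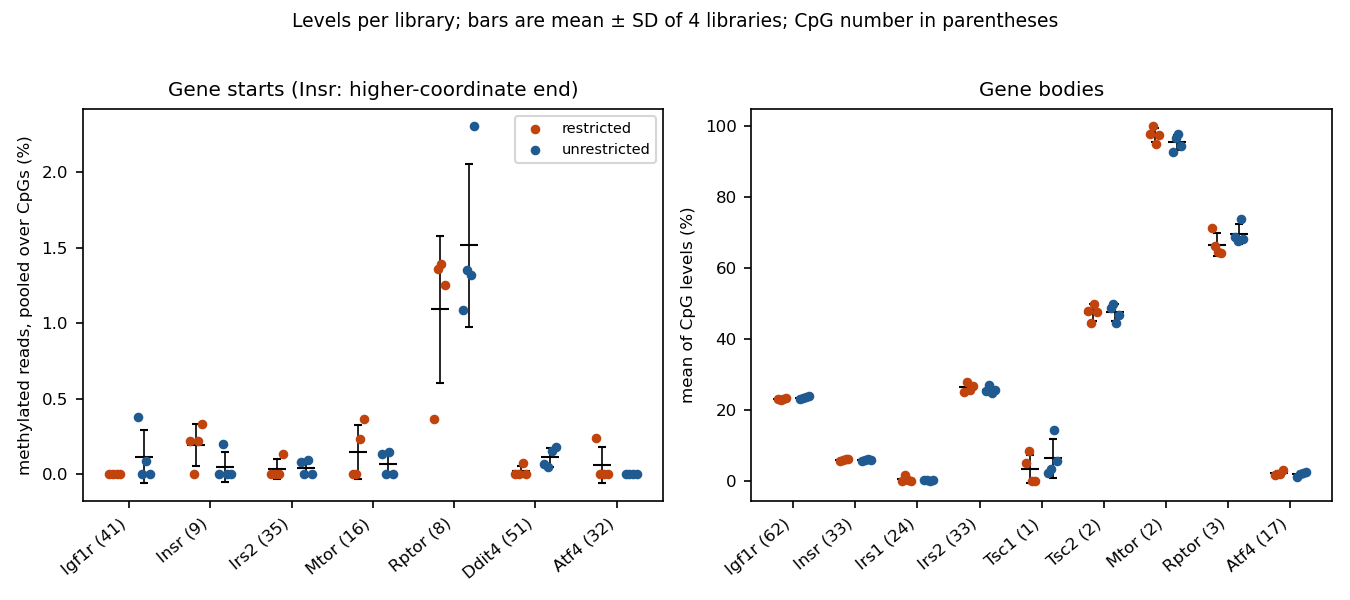
Left, methylated reads pooled over the CpGs of the start window (percent; 1000 bp outside to 500 bp inside the gene); right, mean CpG level of the gene body (percent). Points are the 4 restricted and 4 unrestricted libraries, bars mean ± SD, with the CpG number in parentheses; restricted and unrestricted points share part of their range in each gene.

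Gene ends and gene bodies could be compared in 5 members, and the mean body level lay above the mean end level under both diets. The body exceeded the end windows by 65.5 points ± 3.70 in restricted and 68.1 ± 3.03 in unrestricted libraries in Rptor. The contrast was 26.3 ± 1.25 and 25.6 ± 1.00 points in Irs2, 22.4 ± 0.327 and 22.2 ± 0.793 in Igf1r, 5.73 ± 0.171 and 5.82 ± 0.217 in Insr, and 2.04 ± 0.702 and 1.96 ± 0.548 in Atf4. The mean over body CpGs was above the mean over end CpGs in all 8 libraries for each of the 5 genes. Many single body CpGs were nevertheless low. Those with a mean level below 5% were 45 of 62 in Igf1r, 31 of 33 in Insr, 15 of 17 in Atf4, 16 of 33 in Irs2 and 0 of 3 in Rptor. The contrast depended on which CpGs met the depth. At a minimum of 20 reads only Igf1r, Insr and Irs2 could be compared, and their median was 0.0125 points. Igf1r, with 20 body CpGs left of 62, then had 0 points in restricted and 0.0249 ± 0.283 in unrestricted libraries, and Insr, with 6 left of 33, had -0.0954 ± 0.248 and 0.0272 ± 0.220. Irs2 kept 33.0 ± 0.354 and 32.8 ± 0.629 points. At a minimum of 5 reads 7 genes could be compared, with a median of 27.9 points, up to 83.9 ± 1.496 in restricted and 82.7 ± 1.66 in unrestricted libraries in Mtor and 82.9 ± 1.40 and 84.0 ± 1.53 in Rptor. The median over the 5 genes lay between 22.0 and 22.8 points in restricted and between 21.4 and 23.2 points in unrestricted libraries.

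Set among the 6656 genes for which the same contrast could be formed, these genes spanned a wide range. The contrast of Rptor exceeded that of 86.0% of genes, and those of Irs2 and Igf1r exceeded 67.2 and 64.1%. Insr, at 48.3%, and Atf4, at 41.7%, stood below the middle. The median contrast of all genes was 6.56 to 7.10 points in restricted and 6.91 to 7.20 points in unrestricted libraries. The contrast covers only the CpGs that RRBS reached, not whole genes.

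**Figure D4:**
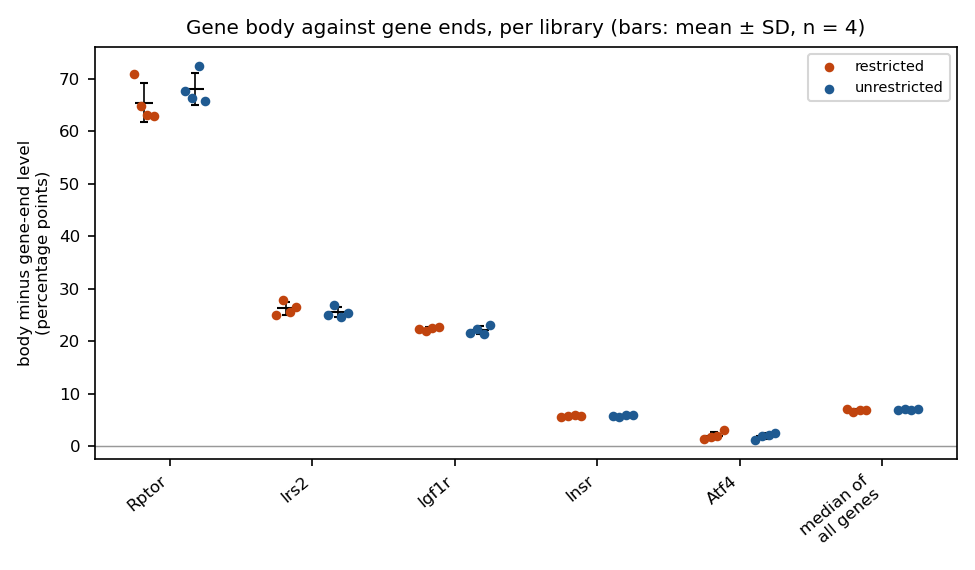
Mean CpG level of the gene body minus that of the end windows, in percentage points, per library, for the 5 members with at least 3 CpGs in each and for the median of 6656 genes. Points are libraries (restricted left, unrestricted right in each pair) and bars mean ± SD; restricted and unrestricted points overlap in each gene.

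The diet term for this contrast was not called in any of the 5 genes by limma, and none had an unadjusted p under 0.05. The called share over all 6610 genes tested was 0%, with 333 at an unadjusted p under 0.05. The largest difference was that of Rptor, -2.63 points (95% interval -7.90 to 2.64). It was 0.740 points in Irs2 (-1.07 to 2.55), 0.275 in Igf1r (-0.764 to 1.32), -0.0865 in Insr (-0.456 to 0.283) and 0.0775 in Atf4 (-0.897 to 1.05). At a minimum of 5 reads the sign turned in Igf1r (-0.305) and Atf4 (-0.205), and with pooled reads in Irs2 (-3.20) and Atf4 (-0.335). The interval was narrowest for Insr and widest for Rptor, whose body rests on 3 CpGs.

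Over all units of the 10 genes, no call was made under diet. Of 27 member tiles tested, 0 were called by the quasi-binomial test, where 0.0177% of all 33897 tiles were. At an unadjusted p under 0.05 there were 2, the neighbouring tiles at the start of Igf1r, and this share of 7.41% was close to the 6.32% of all tiles. Of 116 member CpGs tested, 0 were called, against 0.0997% of 191637 CpGs, and 1 had an unadjusted p under 0.05, or 0.862% against 5.62%. CpGs without a methylated read in any library could not be tested. Of 7 member end windows 0 were called, against 0.0758% of 11866 windows, and 1, the start of Igf1r, had an unadjusted p under 0.05, or 14.3% against 6.95% of all windows. Of 6 bodies 0 were called by limma, with none at an unadjusted p under 0.05, and the share over all 11118 bodies was 0%, with 566 at an unadjusted p under 0.05. A test by limma on log ratios of methylated to unmethylated reads likewise called 0 member tiles, CpGs and end windows.

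With so few calls among all units, a count of 0 in these genes is near the background. The median difference was -0.027 points over the 27 member tiles and -0.0116 points over all tiles, with 11 member tiles higher and 16 lower in restricted libraries. For the 116 member CpGs it was -0.0688 points, with 57 higher and 58 lower, against -0.143 points over all CpGs tested.

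The wider pathway was read from a list of 68 further genes, from ligands and binding proteins to the PI3 kinase, AKT, AMPK, Rag GTPase and eIF2 kinase branches. Their starts were also nearly free of methylation. Start windows could be formed in 50 genes, and all 50 averaged below 5%, 44 of them below 1%, with a median of 0.0615% in restricted and 0.0768% in unrestricted libraries. Bodies of 44 genes ran from 0% to 96.5%, highest in Fnip1, which encodes a partner of folliculin in amino acid sensing. Their medians were 8.42% in restricted and 8.74% in unrestricted libraries.

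No unit of this list was called either: 0 of 143 tiles, 0 of 704 CpGs, 0 of 56 end windows and 0 of 41 bodies by the same tests, beside 0.0177, 0.0997, 0.0758 and 0% over all units. At an unadjusted p under 0.05 there were 6 tiles (4.20%), 26 CpGs (3.69%), 2 windows (3.57%) and 2 bodies (4.88%). Over all units these shares were 6.32% of tiles, 5.62% of CpGs, 6.95% of windows and 5.09% of bodies. The smallest p among windows was at the start of Ddit4l, a paralog of Ddit4 that also restrains mTOR signalling. It read 2.16, 1.73, 2.95 and 2.17% in restricted libraries 1 to 4 and 2.97, 4.89, 2.66 and 3.64% in unrestricted libraries 1 to 4 (quasi-binomial p = 0.00731, adjusted p = 0.594). Restricted library 3 lay above unrestricted library 3, so the groups overlapped by that pair.

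The 3′ end of Pdpk1, which encodes the kinase PDK1 that activates AKT, followed with 0.145% ± 0.194 in restricted and 0% in unrestricted libraries (p = 0.0120, quasi-binomial adjusted p = 0.638). Its methylated reads lay only in restricted libraries 1 and 4, at 0.169 and 0.410%. Next came the start of Prkaa1, an AMPK catalytic subunit, with 0% and 0.121% ± 0.242 (adjusted p = 0.685, quasi-binomial). The Prkaa1 value came from unrestricted library 4 alone, at 0.483%. Among bodies, Stk11, which encodes the AMPK-activating kinase LKB1, averaged 0.932% ± 0.175 in restricted and 0.491% ± 0.305 in unrestricted libraries (limma, adjusted p = 0.948). Akt1s1, which encodes PRAS40, an inhibitor of mTOR complex 1, averaged 5.68% ± 2.35 in restricted and 8.74% ± 1.40 in unrestricted libraries (limma, adjusted p = 0.948). In Akt1s1, restricted library 1, at 9.17%, lay among the unrestricted libraries, which spanned 6.73 to 9.72%. Rictor, the scaffold of mTOR complex 2, averaged 0.0342% ± 0.0684 and 0.491% ± 0.455 (limma, adjusted p = 0.948).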

How the data were processed

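DNA of sorted nephron progenitors was bisulfite converted and sequenced as RRBS, 4 libraries per maternal diet, grouped by their titles. Per the submitters' processing notes, tools included Bismark 0.13.1, Trim Galore 0.3.3 with cutadapt, methylKit and FastQC, on the build mm10; settings were not given. The deposited files give, for each CpG cytosine and strand, the count of reads and the percent of them called methylated, as the authors made them; no header states a filter. The product of count and percent gave the methylated reads, within 0.0488 of a whole number, and both strands were added. The authors' values were not normalised further. Limits from a count of 0 (3 reads of the total) take every call as independent. PCR copies cannot be removed in RRBS, and calls at CpGs on the same read are not independent, so true limits are wider.

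Kept were CpGs covered by 10 or more reads in every library. Tiles of 1 kb, end windows and single CpGs were tested by a logistic model of methylated on total reads with a term for diet. Its F test used a dispersion moderated by squeezeVar of limma 3.58.1 in R 4.3.3, not under 1. Bodies (the gene outside its end windows) and body minus end were tested by limma on unweighted mean CpG levels. Units needed 3 CpGs, p-values were adjusted by Benjamini-Hochberg over all units of a kind, and units with an adjusted p under 0.05 count as called. Levels of tiles and windows pool reads; those of bodies, stretches and CpG classes are means of CpG levels. Differences are restricted minus unrestricted. Gene positions and strands came from RefSeq tables of GRCm38.p6; exons were not used. The models were tested on simulated data. The members, gene lists and tests were chosen with earlier results of these data known. All 10 members are named with their ends, bodies and tile and CpG of smallest p; of the wider pathway, the 3 genes of smallest p for ends and for bodies, and any gene with a call, are named. Other CpGs and stretches were chosen after their values were seen. Alternatives covered coverage minimums, window and tile sizes, pooled reads, another test, the replicate number as a block and each library left out.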

Additional observations from a re-analysis of the deposited data

Results flagged for a closer look

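Of 80 groups of 4 libraries examined, 17 held a library whose gap to its nearest neighbour exceeded Dixon's 95% critical value. Chance marks about 1 group in 20 where values vary continuously, but in 13 of the 17 the other 3 libraries were at 0, so that any methylated read marks the group and this rate does not apply. Some groups also hold the same CpGs. Restricted library 3 stood apart at 0.0680% in the flank of Igf1r, at 1.48% in the flank of Mtor (the same CpGs as its tile of smallest p, also 1.48%), at 3.70% at the Mtor CpG of smallest p, at 2.63% at the Insr CpG 3279102, at 0.0733% at the start of Ddit4 and at 0.0912% in the Ddit4 tile. The other 3 restricted libraries were at 0 in each of these.

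Restricted library 2 stood at 1.75% in the body of Irs1 and at 3.83% in its tile of smallest p. Restricted library 1 stood at 0.241% at the start of Atf4 and at 0.645% in the Atf4 tile, with the other restricted libraries at 0. The same library was low, at 0.368%, at the start of Rptor and in its tile, which hold the same CpGs. Restricted library 4 stood at 0.1304% at the start of Irs2. Among unrestricted libraries, library 3 stood at 0.173% in the flank of Igf1r, library 2 at 0.199% at the higher-coordinate end of Insr, and library 4 at 22.6% at the Irs2 CpG 11004731, where the others read 33.3 to 35.3%.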

How the results depend on the processing

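No member tile, CpG, end window, body or body-minus-end contrast was called under any alternative run. Of 410 recomputed differences for 27 single member results, 376 kept their direction, 34 reversed (16 of them with a single library left out) and 0 were called; the lowest adjusted p was 0.243. Depth limits these values: outside Rptor, the start windows rest on 0 to 7 methylated reads per group.

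The median body-minus-end contrast was 27.9 points over 7 members at a minimum of 5 reads, 0.0125 over the 3 of the 5 members left at 20 reads, and 18.3 with pooled reads. It was 22.2 to 22.4 with each library left out. Over all units, calls numbered 2 tiles at 5 reads, and 2 tiles and 103 CpGs at 20 reads. They were 673 CpGs and 3 windows without restricted libraries 1 and 2, and 0 tiles and 0 windows with limma on log ratios. With a dispersion prior from units with at least 40 reads of each kind, chosen after seeing the data, 0 tiles, 8 CpGs and 0 windows were called. Leaving out each library gave 0 to 24 tiles, 134 to 746 CpGs, 5 to 31 windows, 0 to 1 bodies and 0 to 1 contrasts. The cause of these changes was not tested.

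No pairing by replicate number was visible: same-numbered libraries of opposite diets correlated at -0.0135, -0.0872, -0.0312 and -0.0129. Those of different number correlated at -0.108 to 0.0926. Libraries were therefore not treated as pairs in the main tests. With the replicate block, 0 tiles, 0 CpGs and 0 windows were called, and 2, 18 and 1 with the block and that prior.

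Reversed differences, in points, were as follows. At 5 reads, the Tsc1 tile gave -0.0554, the Irs2 start 0.0041, the Insr body -0.388, the Atf4 body -0.177, and the contrasts of Igf1r -0.305 and Atf4 -0.205. At 20 reads the Igf1r contrast gave -0.0249. Without restricted libraries 1 and 2, the Irs1 tile gave -0.117, the Tsc1 tile -1.58, the Irs2 start 0.0225, the Irs1 body -0.0568 and the Insr contrast 0.0135. With pooled reads, the bodies of Igf1r, Insr, Irs2 and Atf4 gave 0.791, -1.62, -3.21 and -0.275, and the contrasts of Irs2 and Atf4 -3.20 and -0.335. With 1 library left out, ranges crossed 0 for the Irs1 tile (-0.117 to 1.16), Tsc1 tile (-2.20 to 2.26), Irs2 start (-0.0427 to 0.0060), Insr body (-0.0239 to 0.117), Irs1 body (-0.0785 to 0.506), Atf4 body (-0.196 to 0.296) and Atf4 contrast (-0.254 to 0.296).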
